A study of Drosophila melanogaster with 63 samples.

Results

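The genes that encode chromatin insulator proteins of Drosophila melanogaster were examined as binding targets of insulator proteins and of the nucleosome remodeller NURF. The 10 genes were Cp190, su(Hw), mod(mdg4), CTCF, Chro, Ibf1, Ibf2, ZIPIC, M1BP and dwg, of 13911 protein-coding genes on the 6 main chromosomes. They were chosen for the proteins they encode. A peak was counted at a gene where at least 1 bp of it lay in the annotated gene or within 500 bp of either end. All 10 symbols were found in the annotation, and 256 of the 190933 peaks in 46 lists lay in their windows.

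Insulator proteins mark the borders between chromatin domains and hold distant sites together in the nucleus. In the fly, zinc finger proteins recognise DNA and recruit shared partners that carry no such sequence preference. CP190, a BTB and zinc finger protein encoded by Cp190, is the most widely shared of these partners. Su(Hw) binds the gypsy retrotransposon, and Mod(mdg4)67.2, an isoform encoded by mod(mdg4), completes the gypsy complex with Su(Hw) and CP190. Other genes of the group encode DNA-binding proteins that work with CP190. These are CTCF, ZIPIC, the BED-finger pair Ibf1 and Ibf2, and M1BP, which binds a core promoter motif. Chro encodes Chromator, a chromodomain protein of polytene interbands, and dwg encodes Zw5, a zinc finger protein of the scs boundary at a heat shock locus. NURF slides nucleosomes, and NURF301, its largest subunit, is encoded by E(bx).

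The cells were Kc167, a female line derived from embryos, and Kc-MOD-GFP, a line made from it in which a Mod(mdg4) GFP fusion is expressed. Antibodies to Su(Hw), Mod(mdg4)67.2, CP190 and NURF301, with a GFP antibody for the tagged line, were used for chromatin immunoprecipitation with sequencing (ChIP-seq). For knockdown, 5 ug of double-stranded RNA (dsRNA) was transfected, targeting Nurf301, Cp190 or su(Hw), and 4 days of incubation followed. The controls were mock cells of a first series, called mock, and of a second, called mock2, which the labels tell apart only by title. NURF301, CP190 and Su(Hw) lists numbered 3 in mock and 3 in mock2, and 3 in each of the NURF301 and Su(Hw) knockdowns. The CP190 knockdown had 2 lists each for NURF301 and CP190, while Mod(mdg4)67.2 had 3 mock lists and GFP 3 lists from the tagged line. No label says whether replicates came from separate cultures, so the libraries are the units of the tests, and differences between them may be technical. The tests count lists with a peak and pool mock with mock2, and differences between the series do not enter them.

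Mock lists held 4612 to 8234 peaks for NURF301, 5990 to 10578 for CP190 and 3993 to 5360 for Su(Hw). Each knockdown shortened the lists of its own target. NURF301 lists held 253, 3 and 25 peaks after NURF301 knockdown, CP190 lists 1207 and 1286 after CP190 knockdown, and Su(Hw) lists 74, 77 and 97 after Su(Hw) knockdown. Read numbers were not used here, and list length stands for depth. Of the NURF301 mock lists, 3 shared many summits at the identical base. Replicates 1 and 3 of mock2 shared 65.6% of summits, and replicate 2 of mock shared 40.6% and 39.8% with them. The other 183 pairs of lists of 1 antibody shared 0.33% to 9.33%. NURF301 results are therefore given also with these 3 lists counted as 1.

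NURF301 lay at all 10 genes, and CP190 at 9 of them. A reference peak, meaning presence in 4 or more of the 6 mock lists (2 or more of 3 for the Mod(mdg4)67.2 and GFP antibodies), was found for NURF301 at 58.8% of all protein-coding genes and for CP190 at 57%. Reference peaks of NURF301 and CP190 together occurred at 9 of the 10 genes and at 51.9% of all genes. The annotated genes were somewhat longer than average, with a median of 2740 bp against 2161 bp over all genes, and the part this played in the counts was not tested.

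Su(Hw) and Mod(mdg4)67.2, the partners of CP190 in the gypsy complex, were at 1 of the 10 genes. For a group of 10 genes that is not far from their shares over all genes. Su(Hw), Mod(mdg4)67.2 and GFP each had a reference peak at su(Hw) and at no other gene of the group, where the shares over all genes were 15.5%, 9.72% and 9.53%. At the other 9 genes no list of these 3 antibodies held a peak, in mock or knockdown cells. su(Hw) was thus the 1 gene of the 10 with NURF301, CP190, Su(Hw) and Mod(mdg4)67.2 together, a combination at 7.45% of all genes. With respect to their own genes, CP190 lay at Cp190 in 5 of 6 mock lists and Su(Hw) lay at su(Hw) in 6 of 6. Mod(mdg4)67.2 lay at mod(mdg4) in 0 of 3 lists, and GFP, which reports the tagged protein, in 0 of 3. That holds for the 7301 bp annotated as mod(mdg4) and 500 bp either side. The GFP lists admitted weaker peaks, down to a -log10 q (the peak caller's significance) of 1.34, 1.48 and 1.68. No other list went below 6. NURF301 lay at E(bx) in 6 of 6 mock lists.

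**Figure D1:**
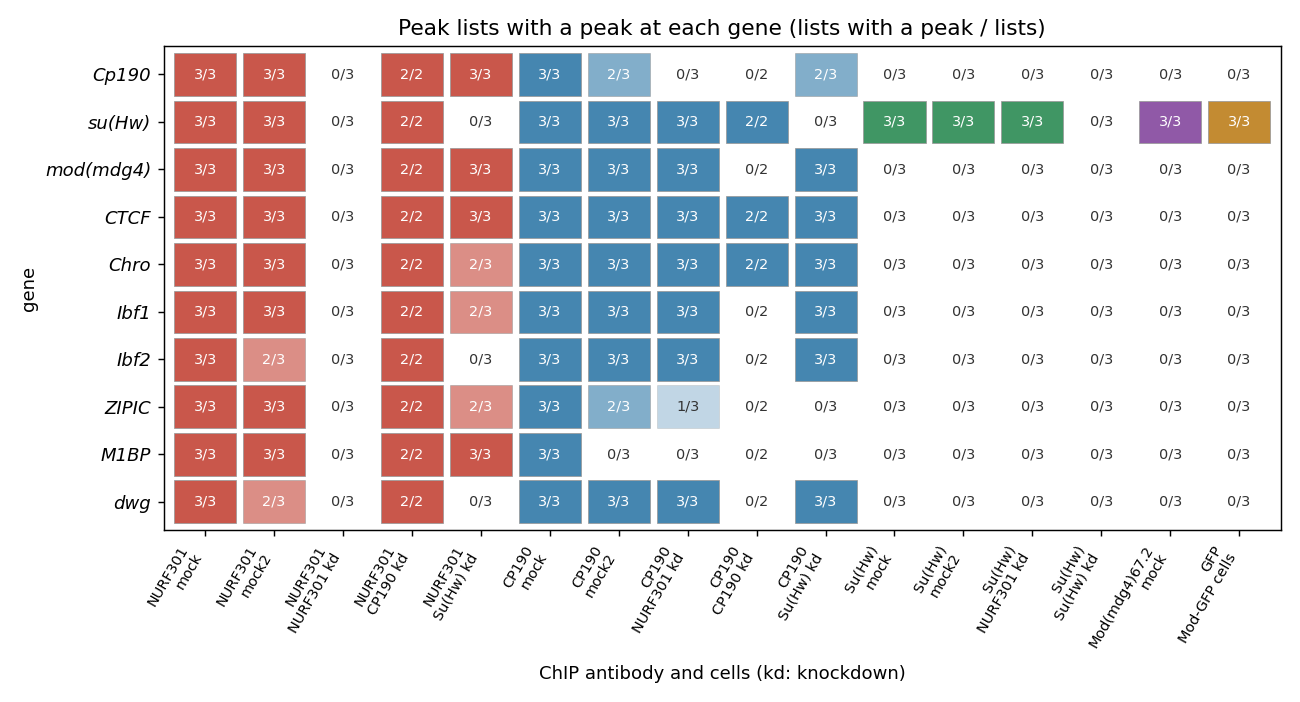
Peak lists with a peak at each of the 10 genes (rows), for each antibody and cell group (columns), written as lists with a peak over lists and shaded by that share. NURF301 and CP190 fill most mock columns, su(Hw) is the only row with Su(Hw), Mod(mdg4)67.2 or GFP peaks, and the NURF301 column after NURF301 knockdown holds 0 of 3 in every row.

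The peaks fell on few places. Summits of the mock and knockdown lists, linked where they lay within 300 bp of each other, formed 16 sites at the 10 genes. Of these, 13 lay within 500 bp of an annotated end of a member gene. Peaks were collected only in the genes and 500 bp around them, so in short genes most of the window lies that near an end. No share over all genes was taken. Of the 16 sites, 14 held summits of both NURF301 and CP190 in mock lists. The median NURF301 summit lay 2 to 106 bp from the median CP190 summit at these sites, with a median distance of 23 bp. The distance was 2 bp at ZIPIC and 106 bp at CTCF. The linking distance was chosen after the peaks had been seen. Strand, exons and introns were not analysed here.

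Several sites sat between a gene of the group and a neighbour, and the peaks cannot be assigned to either gene. At Cp190, summits spanned positions 15275220 to 15275332 of chromosome 3R, across the gene end and within 500 bp of CG4338. Their median lay 15 bp beyond the annotated gene. The ZIPIC site, at 30036782 to 30036935 of 3R, also crossed the gene end, with its median summit 2 bp inside, within 500 bp of ocn. The dwg site, at 2727633 to 2727762 of chromosome X, crossed the gene end near vilya, with its median summit 23 bp outside. M1BP had a site at each end, at 8729725 to 8729787 of 3R near ranshi and at 8731673 to 8731741 near CG8202. Ibf1 and Ibf2 are neighbours and shared a pair of sites, at 9258423 to 9258504 and 9258932 to 9259186 of 3R, so their CP190 values are the same peaks and not separate evidence. Ibf1 had a further site of its own at 9260557 to 9260639, near ATP6AP2. CTCF had its site inside the gene, 163 bp from an end, at 7356495 to 7356708 of chromosome 3L, with no other gene within 500 bp.

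At su(Hw) all the proteins met on a common site inside the gene, 479 bp from an annotated end. The summits of the 5 antibodies lay between positions 14308064 and 14308192 of 3R. In mock cells the fold enrichment at the summit, the authors' value for signal over local background, was 8.41, 14.0 and 7.11 for Mod(mdg4)67.2, and it was 24.2, 14.5 and 8.53 for GFP in the tagged line. These peaks ranked high in their own lists, at percentiles 98.2, 99.1 and 98.5 for Mod(mdg4)67.2 and 99.8, 99.5 and 98 for GFP. Every list of both antibodies placed the su(Hw) site among its strongest peaks. The broad NURF301 and CP190 peaks at this site ran on towards Polr2I, which encodes a subunit of RNA polymerase II. A separate NURF301 summit stood at 14309079, within 500 bp of Polr2I, in 1 list of the CP190 knockdown.

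Su(Hw) enrichment at its own gene differed between the control series. In mock the Su(Hw) peak at su(Hw) had folds of 14.9, 12.3 and 27.2, at percentiles 99.2, 97.9 and 99.9 of its lists. In mock2 the folds were 3.09, 2.99 and 1.95, at percentiles 31.2, 24.5 and 8.36. The series did not overlap. The difference between the median percentiles was 74.7 points, and 15 of the 1933 genes with a Su(Hw) peak in all 6 lists had a difference at least as large in this direction. Over those genes the median difference was -4.6 points, with 5th and 95th percentiles of -39.1 and 52.3. An exact permutation test of 3 against 3 lists cannot go below 0.1, and the difference was noticed in the data, so it is given as a description. Su(Hw) lists were longer in mock2, and a rank in lists of different lengths shows no change by itself.

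CP190 at the same site went the other way. The CP190 folds at su(Hw) were 5.18, 4.7 and 4.3 in mock and 11.3, 6.18 and 7.26 in mock2, again without overlap. NURF301 folds there were 4.43, 3.4 and 6.6 in mock and 4.81, 3.1 and 4.11 in mock2, and these overlapped. What set the series apart was not tested, since the labels tell them apart only by title.

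**Figure D2:**
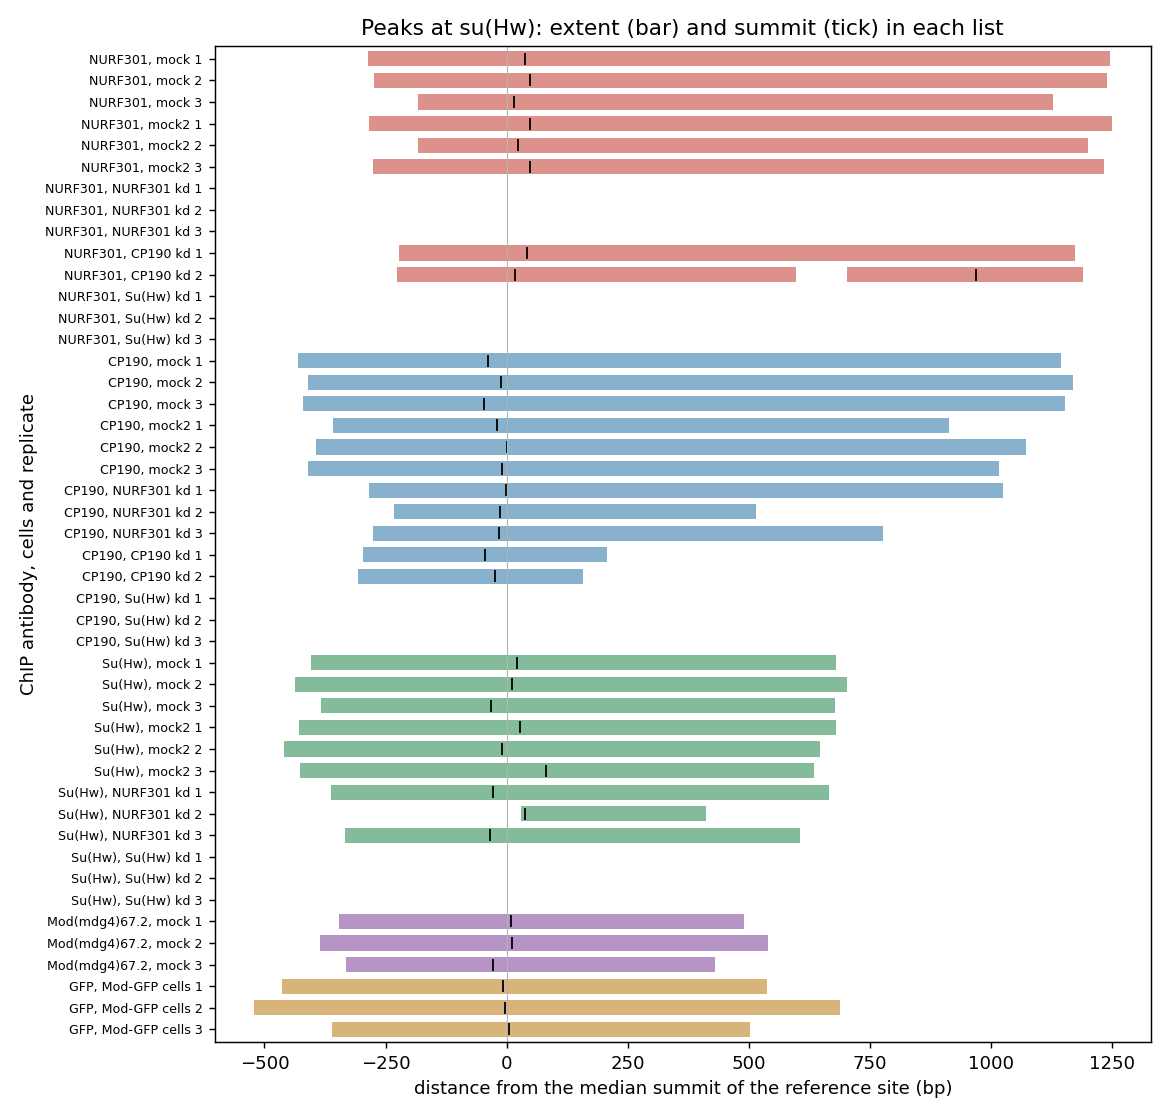
Extent (bars) and summit (black ticks) of every peak at su(Hw) in each list, as distance in bp from the median summit of the shared site. Bars of all 5 antibodies cover the site in mock or tagged cells. NURF301, CP190 and Su(Hw) bars are missing from all Su(Hw) knockdown lists. The CP190 bars are shorter after CP190 knockdown, and in replicates 2 and 3 after NURF301 knockdown.

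mod(mdg4) carried NURF301 and CP190 at 3 sites. Peaks covered each of them in all 6 NURF301 mock lists. The sites lay at 21373586 to 21373634 and 21376392 to 21376453 of 3R inside the gene, and at 21377396 to 21377567 around its end. CP190 was at the first site in 6 of 6 mock lists, with folds of 11.1, 10.6 and 10.6 in mock and 10.7, 10.5 and 12.3 in mock2. At the middle site CP190 had a peak in 3 of 3 mock lists, with folds of 3.38 to 4.63, and in 0 of 3 mock2 lists. The annotation covers 7301 bp of this locus and lists separate pre-mod(mdg4) segments beside it, whose transcripts are joined to it by trans-splicing. Those segments were not counted as part of the gene.

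**Figure D3:**
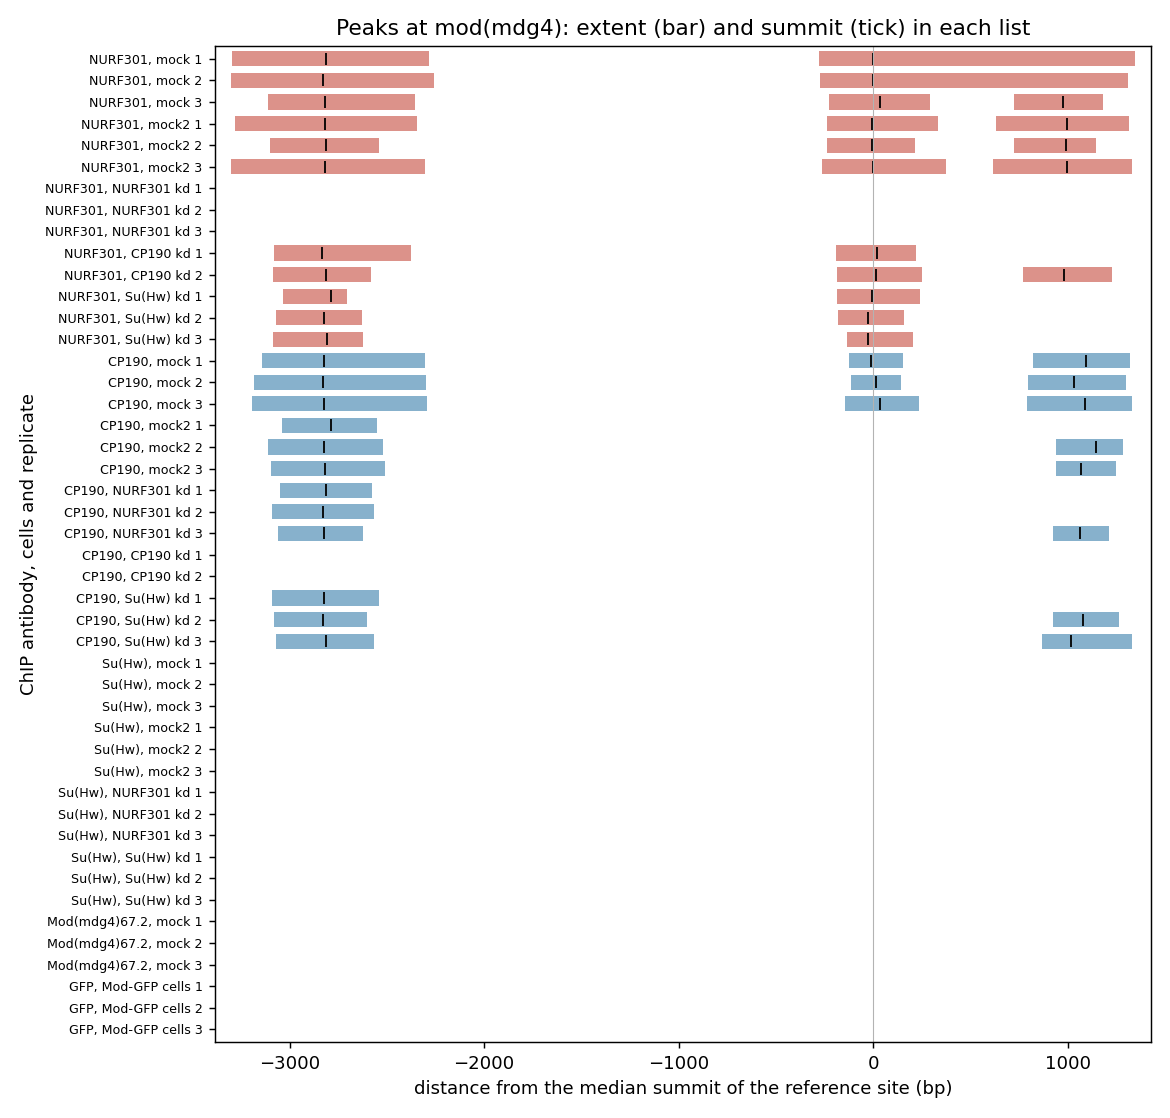
Extent (bars) and summit (black ticks) of every peak at mod(mdg4) in each list, as distance in bp from the median summit of the middle site. NURF301 bars cover 3 places in all 6 mock lists, with the last pair under 1 bar in mock replicates 1 and 2, CP190 bars at the middle place occur in mock and not in mock2, and Su(Hw), Mod(mdg4)67.2 and GFP have no bars.

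M1BP was the gene of the group without a CP190 reference peak. CP190 peaks there occurred in 3 of 3 mock lists, with folds of 5.93, 5.11 and 5.36, and in 0 of 3 mock2 lists. The mock2 CP190 lists were shorter, at 5990 to 8828 peaks against 10115 to 10578. NURF301 at M1BP had folds of 12.4, 12.2 and 17.2 in mock and 12.9, 8.13 and 11.4 in mock2.

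Among 24 further genes of insulator proteins and their partners, 21 had a NURF301 reference peak and 18 a CP190 reference peak. The 3 without a NURF301 reference peak were Elba1, Elba2 and Elba3, which encode an insulator complex of the early embryo. Elba2 did have a NURF301 peak in 2 of 3 mock2 lists. The 1 gene with Su(Hw), Mod(mdg4)67.2 and GFP reference peaks was shep, which encodes an antagonist of gypsy insulator activity in the nervous system. Mod(mdg4)67.2 also had a peak in 1 of 3 lists at E(bx).

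After NURF301 knockdown no NURF301 peak was left at any of the 10 genes in any of the 3 lists. Over all genes with a NURF301 reference peak, 94.8% had none left. A two-sided Fisher exact test of the number of lists with a peak, adjusted by Benjamini-Hochberg over all 7886 genes that could reach 0.05, called 8 of the 10 genes lost, each with 6 of 6 mock lists against 0 of 3 and an adjusted p of 0.0164, and it called 72.8% of the genes tested. The knockdown lists had peaks at only 3.01%, 0% and 0.173% of all genes. With lists this short, most genes with a peak in 6 of 6 mock lists are called lost. Lists of equal length were not made for this comparison. Ibf2 and dwg had 5 of 6 mock lists and an exact-test adjusted p of 0.0555. The list without them was mock2 replicate 2, the shortest at 4612 peaks. Without that list all 10 genes were called, with an exact-test adjusted p of 0.0182 for Ibf2 and dwg. The test then called 6611 of the 6746 genes tested. With the 3 lists of shared summits counted as 1, the same test called 8 genes. Among the 24 further genes 14 of 21 were called lost: BEAF-32, Trl, pita, lolal, pzg, Cap-H2, SMC1, SMC3, rump, e(y)2, HIPP1, Top2, l(3)mbt and fs(1)h. A peak in 1 of 3 knockdown lists was found at Clamp, vtd, Nipped-B and E(bx).

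CP190 was still at most of the genes after NURF301 knockdown. Of the 9 genes with a CP190 reference peak, 7 had a CP190 peak in every knockdown list, against 58.4% of such genes in the genome. Cp190 itself was the 1 gene with none left, against 17.4% over all genes. CP190 folds at Cp190 were 8.94, 7.03 and 6.17 in mock, with no peak, 4.66 and 5.68 in mock2, and no peak in the 3 knockdown lists. The knockdown lists were shorter, at 4091 to 5465 peaks, and with every CP190 list shortened to 4091 peaks Cp190 had a peak in 0 of 6 mock lists. The Fisher exact test, adjusted by Benjamini-Hochberg, called 0 of the genes tested, or 0% of 2549, with an adjusted p of 0.112 at Cp190. At an unadjusted p under 0.05 the exact test put 1084 genes lower, 1 of them in the group. Without mock2 replicate 1, the list that lacked the peak, the exact-test adjusted p at Cp190 was 0.0308. In that setting 1080 of the 1862 genes tested were called lost.

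ZIPIC had CP190 in 5 of 6 mock lists and in 1 of 3 NURF301 knockdown lists, where its fold was 7.54, with an exact-test adjusted p of 0.333, and in 0 lists of either kind when they were shortened to 4091 peaks. M1BP had 3 of 6 against 0 of 3, with an exact-test adjusted p of 0.482. Its 3 mock lists with a peak were all of the first series, and mock2 had 0 of 3. The CP190 folds at the 7 other genes overlapped between mock and knockdown lists. At mod(mdg4) they were 5.88, 16.4 and 10.4 after knockdown, and at CTCF, where mock lists gave 9.39 to 24.0, they were 13.3, 4.2 and 9.66. Within mod(mdg4) the first site had CP190 in 3 of 3 knockdown lists, the middle site in 0 of 3 and the site at the gene end in 1 of 3. Of the 18 further genes with a CP190 reference peak, 9 had it in every knockdown list, and Cap-H2 and Topors had none.

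Su(Hw) was at su(Hw) in 3 of 3 lists after NURF301 knockdown. The share of genes with a Su(Hw) reference peak and all 3 knockdown peaks was 66.4%, and it was 82.5% among the 1037 genes with all 4 proteins. The folds were 5.91, 1.95 and 7.03, all below those of mock and overlapping those of mock2. The Fisher exact test with Benjamini-Hochberg adjustment called 29% of 497 genes lost and could not test su(Hw), which had a peak in every list. That share rests on few lists, since 0 of the genes were called with a replicate block, with lists of equal length, or without any 1 of the 3 knockdown lists (replicate 1, 2 or 3). CP190 at su(Hw) was likewise in 3 of 3 lists, with folds of 6.25, 2.23 and 3.45.

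After CP190 knockdown NURF301 was at all 10 genes in both lists. The share of genes with a NURF301 reference peak and peaks in both knockdown lists was 69.2%, and 19% had none. Among the 5781 genes with NURF301 and CP190 but neither Su(Hw) nor Mod(mdg4)67.2, 78.7% had both, and among genes with all 4 proteins 47.7%. At su(Hw) the NURF301 folds were 7.4 and 9.84, above the 3.1 to 6.6 of the mock lists. At CTCF they were 6.21 and 8.71 against 10.4, 11.2 and 13.0 in mock and 12.3, 6.76 and 11.5 in mock2, which overlapped. The Fisher exact test with Benjamini-Hochberg adjustment called 0 genes, or 0% of 775, and at an unadjusted p under 0.05 it put 330 genes lower, 0 of them in the group. With the NURF301 lists of shared summits counted as 1, no gene could reach 0.05. Among the 24 further genes, insv and shep had no NURF301 peak left.

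CP190 peaks in the CP190 knockdown divided the group. None was left at 6 of the 9 genes with a reference peak, namely Cp190, mod(mdg4), Ibf1, Ibf2, ZIPIC and dwg, and the share over all genes was 80.1%. The Fisher exact test with Benjamini-Hochberg adjustment called 4 genes lost, mod(mdg4), Ibf1, Ibf2 and dwg, each with 6 of 6 mock lists against 0 of 2 and an adjusted p of 0.0366. It called 97.7% of the 4807 genes tested. Cp190 and ZIPIC, at 5 of 6 against 0 of 2, could not reach 0.05 with 2 knockdown lists. The calls depended on the number of lists: without any 1 of the 3 CP190 lists of the first series (mock replicate 1, 2 or 3) the exact-test adjusted p was 0.0559 and 0 genes were called, in the group or outside it. Without mock2 replicate 1, the list that lacked Cp190 and ZIPIC, the exact test called 6, with both at an adjusted p of 0.0485. It then called 5986 of the 6099 genes tested. When every CP190 list was shortened to its 1207 strongest peaks, each of the 4 called genes had a peak in 1 of 6 mock lists and 0 were called.

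CP190 was found in both CP190 knockdown lists at su(Hw), CTCF and Chro, where 16.5% of all genes with a reference peak had both. The peak at su(Hw) had folds of 12.6 and 10.2 and stood at percentiles 77.7 and 75.3 of the short knockdown lists. It was narrower, at 504 and 465 bp, than in the 6 mock lists, where it measured 1272 to 1581 bp. The NURF301 knockdown lists gave CP190 widths of 1310, 748 and 1052 bp there. Genes with all 4 proteins had both CP190 knockdown peaks in 47.2% of cases, and genes with NURF301 and CP190 but neither Su(Hw) nor Mod(mdg4)67.2 in 12.4%.

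The peaks left at CTCF and Chro were narrower too, as were the strongest CP190 peaks there after NURF301 knockdown. Those measured 611, 404 and 581 bp at CTCF and 959, 852 and 885 bp at Chro. At Chro, however, each NURF301 knockdown list held 2 CP190 peaks where each mock list held 1. The 2 peaks lay at the site near Ssl1 and at the site inside the gene, each in 3 of 3 lists. The Chro widths after NURF301 knockdown thus measure only the stronger of the 2 and do not show a smaller covered region. After CP190 knockdown the folds at CTCF were 4.7 and 2.73, at percentiles 9.2 and 0.0778. The widths there were 188 and 178 bp, against 756 to 856 bp in the mock lists. The -log10 q of these peaks was 14.9 and 6.06. A filter at 20 removes both, and the exact test then called CP190 lost at CTCF, with an adjusted p of 0.0369. With that filter it called 4468 of the 4616 genes tested. At Chro the folds were 7.65 and 7.73, at percentiles 45.5 and 49.8, and the widths were 712 and 727 bp, against 1443 to 1693 bp in the mock lists, with summits at the site near Ssl1, and no CP190 peak was left at the site inside the gene. Of the 18 further genes with a CP190 reference peak, pzg, Top2 and fs(1)h had it in both lists, E(bx) in 1 of 2, and 11 were called lost by the exact test: BEAF-32, pita, lolal, Clamp, SMC1, SMC3, insv, shep, rump, HIPP1 and l(3)mbt. pzg encodes Z4, a zinc finger protein that works with Chromator.

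**Figure D4:**
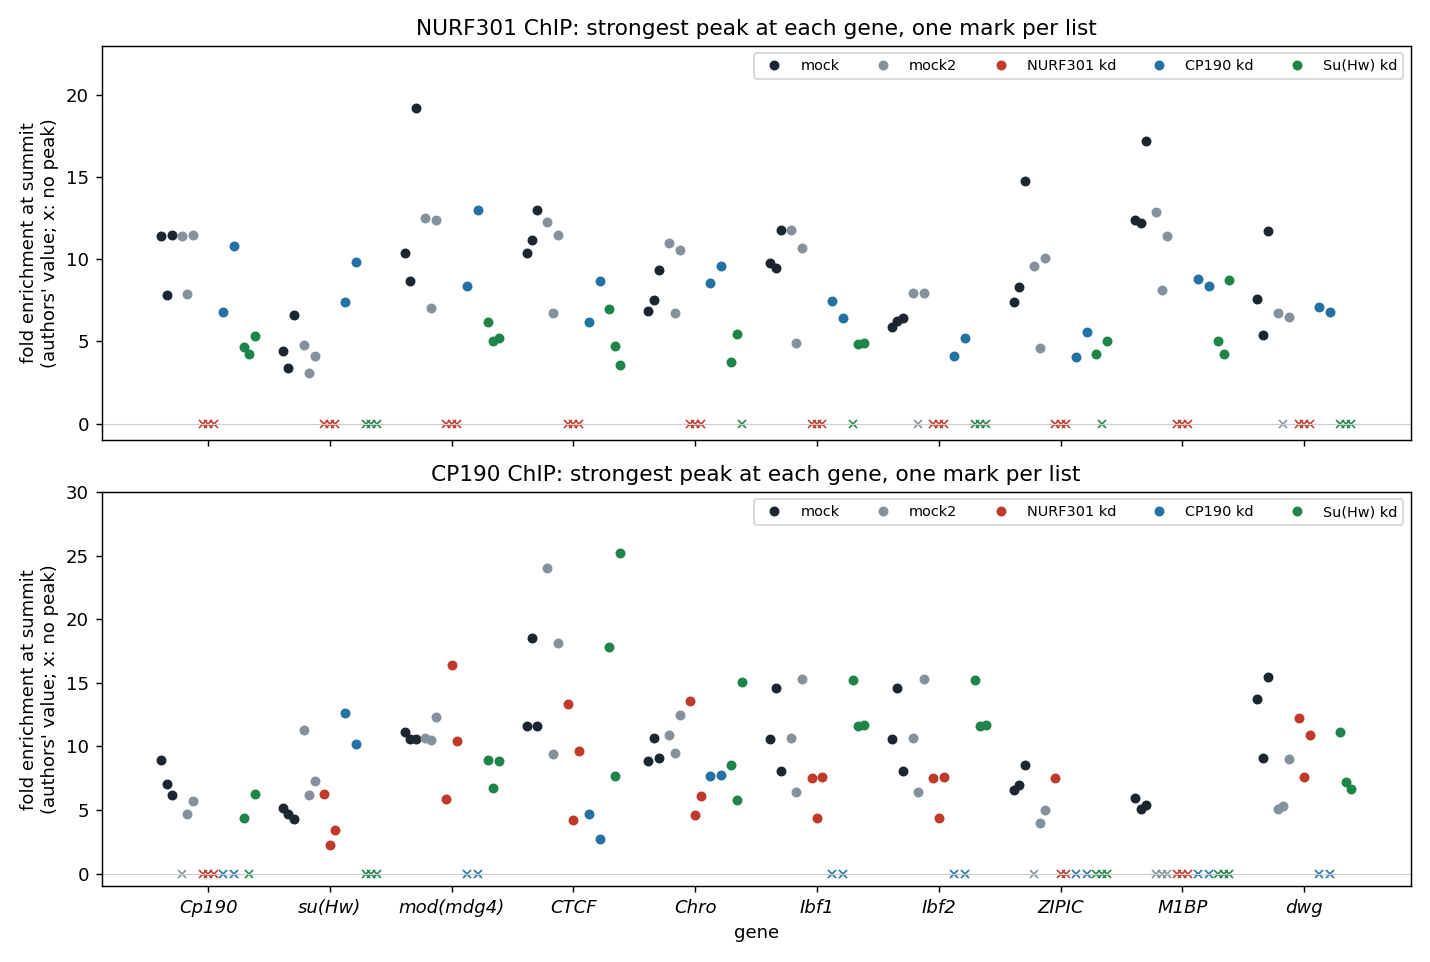
Fold enrichment of the strongest NURF301 (top) and CP190 (bottom) peak at each gene, 1 mark per list, with crosses at 0 for lists without a peak; kd is knockdown. NURF301 marks after CP190 knockdown stand at all 10 genes, and CP190 marks after CP190 knockdown stand at su(Hw), CTCF and Chro only.

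In Su(Hw) knockdown cells NURF301, CP190 and Su(Hw) peaks were all missing from su(Hw). Su(Hw) had a peak there in 6 of 6 mock lists and 0 of 3 knockdown lists, with an adjusted p of 0.0143 (Fisher exact test, Benjamini-Hochberg over 2181 genes, 83.3% of them called lost). NURF301 was lost at su(Hw) by the same exact test, with an adjusted p of 0.0271, and CP190 with an adjusted p of 0.0385. For NURF301 43.9% of 3816 genes were called lost, and for CP190 30.8% of 2937, with 0.0681% gained. The share of genes with none left was 94.6% for Su(Hw) (2.14% had Su(Hw) in every knockdown list), 44.1% for NURF301 and 22.7% for CP190. Among the 1037 genes with all 4 proteins it was 89.1%, 75.1% and 43.9%.

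The losses of NURF301 and CP190 at su(Hw) have to be read beside the length of the lists. NURF301 lists held 1819 to 2027 peaks after Su(Hw) knockdown. When every NURF301 list was shortened to its 1819 strongest peaks, su(Hw) had a peak in 1 of 6 mock lists. When CP190 lists were shortened to 3691 peaks it had a peak in 3 of 6, and the exact-test adjusted p was 0.499. The CP190 call also ended when any 1 of the 3 knockdown CP190 lists (replicate 1, 2 or 3) was left out, with an exact-test adjusted p of 0.0553, and in the genome 905 genes called lost became 0. With the 3 NURF301 lists of shared summits counted as 1, the NURF301 call held.

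NURF301 after Su(Hw) knockdown was found at 7 of the 10 genes. Cp190, mod(mdg4), CTCF and M1BP had it in 3 of 3 lists, and 22% of all genes with a reference peak did. Chro, Ibf1 and ZIPIC had it in 2 of 3. The folds were below every mock value at Cp190, with 4.69, 4.23 and 5.31 against 7.8 to 11.5, and at mod(mdg4), with 6.17, 5.05 and 5.2 against 7.05 to 19.2. At CTCF, with 6.95, 4.73 and 3.54 against 6.76 to 13.0, and at M1BP, with 5.01, 4.23 and 8.77 against 8.13 to 17.2, the ranges overlapped. Ibf2 and dwg had none left, with 5 of 6 against 0 of 3 lists and an exact-test adjusted p of 0.0693. Without mock2 replicate 2 the exact test called both, with an adjusted p of 0.019, and 3 of the 10 genes in all. That list lacked both peaks, and the test then called 2482 of the 2634 genes tested. With NURF301 lists shortened to 1819 peaks, Ibf2 and dwg had a peak in 0 of 6 mock lists.

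At mod(mdg4) NURF301 was in 3 of 3 Su(Hw) knockdown lists at the first and middle sites and in 0 of 3 at the site by the gene end. When only the 500 bp either side of the annotated ends were counted, mod(mdg4) was called lost by the exact test, with an adjusted p of 0.0268. The test then called 1602 of the 3610 genes tested. Among the 24 further genes Trl, which encodes GAGA factor, was called lost (exact-test adjusted p 0.0271), and insv, Topors and shep had none left without a call.

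CP190 after Su(Hw) knockdown was found in 3 of 3 lists at mod(mdg4), CTCF, Chro, Ibf1, Ibf2 and dwg, 6 of 9 genes against 59.5% of all genes with a reference peak. Cp190 had it in 2 of 3 lists, with folds of 4.39 and 6.29. ZIPIC had none left, at 5 of 6 against 0 of 3 and an exact-test adjusted p of 0.0928. Without mock2 replicate 1 the exact test called ZIPIC lost, with an adjusted p of 0.0273, and 2 genes of the group in all. That list lacked the ZIPIC peak, and 1499 of the 2293 genes tested were then called lost. With CP190 lists shortened to 3691 peaks, ZIPIC had a peak in 0 of 6 mock lists, and Cp190 in 0 of 6 mock and 1 of 3 knockdown lists. At Ibf1 and Ibf2, which share the peak, the CP190 folds were 15.2, 11.6 and 11.7, within the 6.44 to 15.3 of the mock lists. At the further site of Ibf1, near ATP6AP2, CP190 was in 3 of 3 mock and 2 of 3 mock2 lists and in 0 of 3 Su(Hw) knockdown lists. Of the 18 further genes with a CP190 reference peak, 0 had none left.

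**Figure D5:**
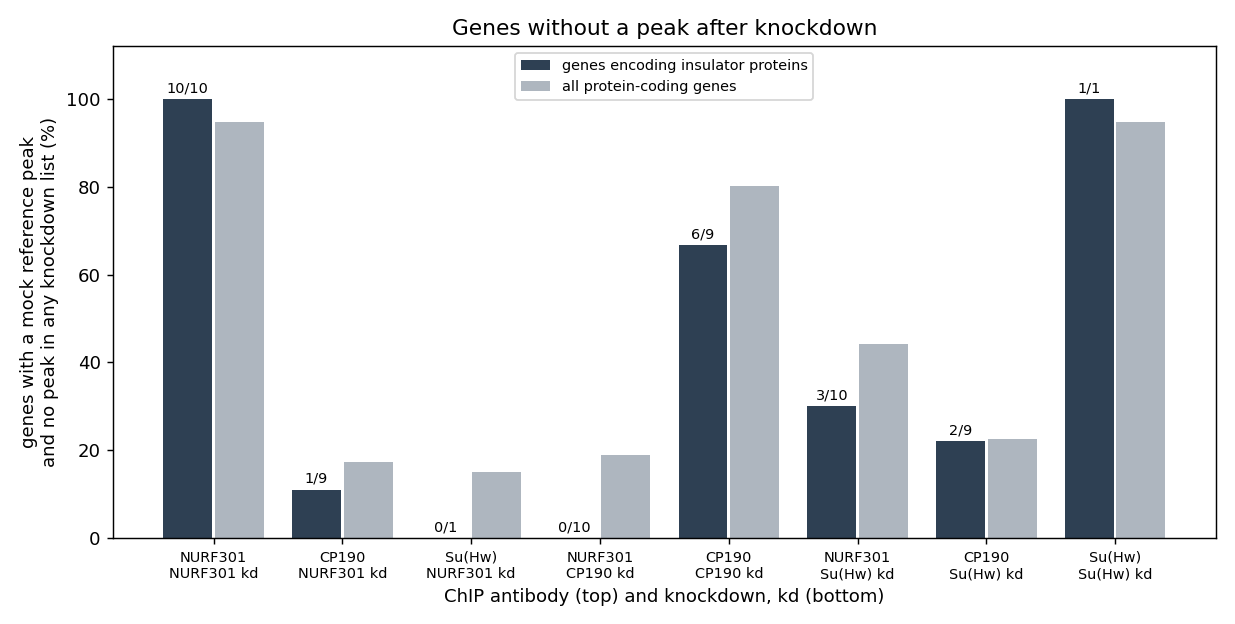
Percent of genes with a mock reference peak that had no peak in any knockdown list (bars from 0), for the 10 insulator protein genes (dark, with counts) and for all protein-coding genes (grey), in the 8 comparisons. For CP190 the counts are 1 of 9, 6 of 9 and 2 of 9 after NURF301, CP190 and Su(Hw) knockdown, beside 17.4%, 80.1% and 22.7% of all genes.

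The 3 knockdowns share their mock lists, so their values stand side by side and are not independent. Across the 46 lists, each of the 10 genes had the identical pattern of presence as other protein-coding genes, from 6 genes for ZIPIC and 7 for Cp190 to 621 for mod(mdg4). su(Hw) shared its pattern with 17 genes, and Ibf2, M1BP and dwg with 57 each. With so many ties no gene is named as most similar.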

How the data were processed

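The 10 genes, the 24 further genes and the linking of summits were chosen with earlier results of these data known. Peaks were called per library with MACS2 2.2.7.1 after Bowtie2 2.4.2, SAMtools 1.12 and Picard 2.25.2, per the submitters' processing notes. Settings, control and genome build are not given in the sources used here. Each deposited list gives a summit offset and the authors' score, ratio (fold enrichment over local background), -log10 p and -log10 q per peak, used here only to describe, rank or filter peaks within a list. The values show the score to be 10 times the -log10 q. Sequence names match Release 6, whose RefSeq table gave gene spans without strand. The 17 input samples have no list and enter no comparison.

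Each knockdown was compared with all 6 mock lists in 8 comparisons. Replicate titles carry an R in mock and the NURF301 and CP190 knockdowns, and none in mock2 and the Su(Hw) knockdown. The alternative with 1 mock series used the series numbered like the knockdown. For every gene, presence across lists was compared with Fisher's exact test (two-sided), adjusted by Benjamini-Hochberg over the genes whose total could reach 0.05. The smallest p is 0.0119 for 6 against 3 lists and 0.0357 for 6 against 2. All 10 genes were named. Further genes were named where called, where none was left, or where 5 or fewer were counted. The alternatives were other windows, a -log10 q of at least 20, summits only, lists of equal length, 1 mock series, a replicate block and each list left out. Python 3.11.15, numpy 2.4.6, pandas 2.3.3, scipy 1.17.1 and matplotlib 3.10.9 were used.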

Additional observations from a re-analysis of the deposited data

Results flagged for a closer look

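In groups of 6 mock lists, Dixon's test looked for a list that stood apart from the other 5 in 23 sets of values. It flagged 4. The nominal rate is about 1 in 20, but some sets were counts with ties and some genes share peaks. The 4 are therefore not read as an excess. Peaks of NURF301 occurred at 8 of the 10 genes in mock2 replicate 2 and at 10 in each other mock list; that list was the shortest, at 4612 peaks. In the same list the strongest NURF301 peak at Ibf1 had a fold of 4.92, against 9.5 to 11.8 in the others. Peaks of CP190 occurred at 7 genes in mock2 replicate 1, the shortest CP190 mock list at 5990 peaks, and at 9 to 10 in the others. At mod(mdg4) the CP190 fold was 12.3 in mock2 replicate 3 and 10.5 to 11.1 in the others. The part of list length in the first 3 was not tested.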

How the results depend on the processing

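Of the counts recomputed for the 10 genes, 278 stayed within 1.5 times the reported count and 23 moved; of the tests of single genes, 170 were unchanged in call, 19 gained one and 9 lost one, and 4 turned in direction, none of them called. NURF301 at Ibf2 after CP190 knockdown went from 16.67 percentage points more lists to -33.33 with the gene span alone and -66.67 at a -log10 q of at least 20. CP190 at Cp190 after Su(Hw) knockdown went from -16.67 to 33.33 with lists of equal length, and ranged from -33.33 to 16.67 with single lists left out (16.67 without knockdown replicate 2). With lists of equal length no gene of the group had a reference peak and none left, that is 0 for CP190 after NURF301, CP190 and Su(Hw) knockdown and 0 for NURF301 after Su(Hw) knockdown, and 0 were called for CP190 after CP190 knockdown and for either antibody after Su(Hw) knockdown. The weaker genes then lack a reference peak in the shortened mock lists. With the mock series numbered like the knockdown, CP190 was missing from 2 genes after NURF301 knockdown, and no test could reach 0.05. At a -log10 q of at least 20, NURF301 was missing from 1 gene after CP190 knockdown and from 5 after Su(Hw) knockdown. Of the 5, 2 were called, beside 2671 of the 6136 genes tested. With gene ends alone 2 were called after Su(Hw) knockdown, beside 1602 of 3610.

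Leaving out single lists gave 0 to 1 genes called and 1 to 2 with none left for CP190 after NURF301 knockdown, 0 to 6 called for CP190 after CP190 knockdown, 1 to 3 called for NURF301 after Su(Hw) knockdown and 0 to 2 called for CP190 after Su(Hw) knockdown. Same-numbered lists did not deviate together (44 correlations of -0.212 to 0.0679). With few lists per group and few peaks in some knockdown lists, these values cannot show whether the numbers pair the samples. With a replicate block 0 genes were called for CP190 after Su(Hw) knockdown (su(Hw), exact-test adjusted p 0.0754), and the other counts were as reported, 8 for NURF301 after NURF301 knockdown. Depth is known only as list length, so a missing peak is a peak not detectable at that length. The block could not be tested with the 2 CP190 knockdown lists. Lists of equal length were not made for the knockdown's own antibody after NURF301 and Su(Hw) knockdown or for GFP, whose lists fall under 1000 peaks.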

Other observations

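At E(bx), which encodes NURF301, that protein lay in 6 of 6 mock lists, in 1 of 3 lists after NURF301 knockdown, in 2 of 2 after CP190 knockdown and in 3 of 3 after Su(Hw) knockdown. CP190 lay there in 6 of 6 mock lists and in 1 of 2 lists after CP190 knockdown. Values after CP190 knockdown at shep and su(Hw), the genes with Su(Hw), were as follows, and their difference was not tested. NURF301 had been at shep in 4 of 6 mock lists and was in 0 of 2, and CP190 had been there in 6 of 6 and was in 0 of 2, whereas su(Hw) had both proteins in 2 of 2.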
